A study of Mus musculus with 6 samples.

Results

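The transcription factors of adipocyte formation Pparg, Cebpa, Cebpb, Cebpd, Rxra, Klf15, Ebf1, Ebf2, Zfp423 and Klf4, were followed in messenger RNA of cultured mouse adipocytes. They were chosen by name, and 10 of 10 were present among the 13734 genes of the table and passed the filter that left 10054 genes for testing. The cells were white adipocytes differentiated from 1 immortalized subcutaneous preadipocyte line with Dicer1 flox/flox alleles and a tamoxifen-activated Cre-ERT2. On day 6 of differentiation they received 10 µM 4-hydroxytamoxifen for 48 h (DICER_KO, 3 libraries) or ethanol (control, 3 libraries). The drug was given to delete Dicer1, the RNase that matures microRNAs. The sample titles call the controls WT control. Both groups were differentiated with the PPARγ agonist rosiglitazone, insulin and thyroid hormone, with dexamethasone, indomethacin and a phosphodiesterase inhibitor at induction. Both were finally stimulated for 6 h with isoproterenol, an agonist of beta-adrenergic receptors, at 10 µM. All 3 DICER_KO cultures and no control saw 4-hydroxytamoxifen, so the deletion and the drug cannot be told apart. The labels name biological replicates without saying that cultures were differentiated separately, so the spread behind each p-value is that of these libraries and may be technical.

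Adipogenesis runs as a cascade of transcription factors. Cebpb and Cebpd are switched on early, by glucocorticoid and cyclic AMP signals, and help to induce Pparg and Cebpa, which then keep each other and the genes of the fat cell on. PPARγ binds DNA together with the retinoid X receptor, Rxra. Klf4, Klf15, Ebf1 and Ebf2 act upstream of or beside that core, and Zfp423 marks cells committed to the white fat lineage.

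The letters of some of these transcripts match microRNA seeds, which is why the following sequences are shown for a study of Dicer1. The seed is bases 2 to 8 of a mature microRNA, and a seed match is the reverse complement of these 7 bases in a 3' UTR. Mature sequences are from RefSeq (GRCm38.p6), with the seed in capitals.
miR-27a-3p: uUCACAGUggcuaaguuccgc
miR-130a-3p: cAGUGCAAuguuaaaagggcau
miR-155-5p: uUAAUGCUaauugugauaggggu
miR-31-5p: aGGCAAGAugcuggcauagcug
The miR-27 seed is shared by miR-27a and miR-27b, and the miR-130 seed by miR-130a, miR-130b and miR-301a. The matches below are from the 3' UTR of the annotated transcript with the longest coding part (GENCODE M21, GRCm38), sense strand, with the matching 7 bases in capitals.
Pparg, miR-27: cacctaagaaatttACTGTGAa
Pparg, miR-130: gttccttctattgaTTGCACTa
Klf15, miR-27: aagcgtagggctgcACTGTGAt
Cebpb, miR-155: ccttttccgtttcgAGCATTAa
Cebpa, miR-31: ggttttgctctgatTCTTGCCa
The capitals in Pparg lie at chr6:115490283-115490289 and chr6:115490237-115490243, in Klf15 at chr6:90474718-90474724, in Cebpb at chr2:167690366-167690372 and in Cebpa at chr7:35121521-35121527, all on the plus strand. In Pparg, Cebpb and Cebpa an A follows the match, the strongest form of a seed match. The same holds in Rxra for its matches to miR-27 and miR-125, which are not printed. Matches for 12 microRNA families numbered 14 in 8 of the 10 factors, and 62.1% of the 9435 tested genes with a 3' UTR held at least 1. Pparg held both of its matches in a 3' UTR of 204 bases, where the median over all genes was 992 bases. Of the 9435 genes, 1508 held a match for miR-27, as did 3 of the 10 factors. The share of genes was 10.7% for miR-130, held by 2, 8.49% for miR-155, held by 2, and 11.7% for miR-31, held by 1. For let-7 it was 9.44% of genes and 0 of the 10 factors. Ebf1 and Zfp423 held no match for these families in the 3' UTR searched. A match is a match of letters, and microRNA levels were not measured in these libraries. Promoters from 250 bases before to 50 bases after the start (RefSeq, GRCm38.p6) were also searched on both strands for TGACGTCA (cyclic AMP response element), TTGCGCAA (C/EBP), the EBF palindrome and the direct repeat of PPAR and RXR, none of which contains another. Of the 13 entries for 8 of the factors, 0 held any of these motifs. Over all 32851 entries the shares with a match were 1.79%, 0.183%, 0.904% and 0.0396%. At shares this low, 0 among 13 entries does not set the factors apart. Cebpd and Ebf2 had no entry, so their promoters were not searched.

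Values are log2 CPM, the log2 of reads counted on a gene relative to the size of the library (CPM). Reads on the genes of the table came to 13569034 to 30268077 per library, with the most in DICER_KO replicate 3, and the factors had 169 to 9130 reads each per library. Dicer1 had a mean of 6.12 ± 0.030 log2 CPM among controls, against 5.46 ± 0.030 among DICER_KO libraries (SD, n = 3 each). It was below every control in each of the 3 DICER_KO libraries, at 0.619, 0.635 and 0.645 times the control mean. These values do not show how complete the deletion was. DICER_KO replicate 3 stood apart from the other 2. A chi-square of its reads against theirs was 85.5 and 92.8 per degree of freedom. It was 8.36 between replicates 1 and 2 and 12.1 to 26.4 between controls. Where libraries vary beyond counting error this value grows with the number of reads, so the pairs are not strictly alike. Differences are therefore given with all libraries, for each DICER_KO library singly, and without replicate 3. The fit without replicate 3 is 1 of the 6 fits that each leave out a library, and its p-values lack the spread that this library adds.

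Defining genes of the labelled cell type were present in all libraries. Summed over 7 markers of the mature adipocyte (Adipoq, Plin1, Fabp4, Cidec, Lipe, Cfd and Retn), the level was 4268 to 5545 CPM in controls, 8730 and 8768 in DICER_KO replicates 1 and 2, and 2316 in replicate 3. Each of the 7 lay above all controls in replicates 1 and 2 and below them in replicate 3. In this bulk RNA fewer adipocytes and less of these RNAs per adipocyte cannot be told apart. The 11 of 12 preadipocyte and fibroblast markers with a value summed to 8784 to 10799 CPM in controls and to 6457, 6798 and 6100 in DICER_KO replicates 1 to 3. The collagen genes Col3a1, the 1 marker of this list that passed the test (-1.44, limma adjusted p = 0.00856), and Col1a1 (-0.70, adjusted p = 0.0814) had the lowest differences. The median over the 10 tested markers was -0.056, and Pdgfra, Pdgfrb, Ly6a, Cd34 and S100a4 differed by -0.061 to 0.053, and Dlk1 by 0.29. Thy1 was at -0.46 (limma adjusted p = 0.112) and lay below every control in each DICER_KO library. Vim was at -0.22 (adjusted p = 0.415). Smooth muscle markers (4 of 4) summed to 429 to 567 CPM in controls and to 440, 350 and 444 in DICER_KO. For macrophages and leukocytes (4 of 7 markers) the sums were 27.8 to 30.0 CPM and 33.02, 34.3 and 31.4, and for endothelium (4 of 5) 4.94 to 6.09 CPM and 6.31, 8.16 and 7.75. The 2 tested endothelial markers went opposite ways, Tek at 0.67 and Kdr at -1.39 (limma adjusted p = 0.118 and 0.319). So did the 2 tested macrophage and leukocyte markers, Cd68 at 0.39 and Cd14 at -0.17 (limma adjusted p = 0.163 and 0.614). None of the markers with a value was at 0 reads in all libraries. Their part in the differences below was not tested.

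Within the controls the factors spanned a wide range of levels per length. On the scale of log2 CPM per kb of annotated exon, the order of control means from high to low was Cebpb (7.38 ± 0.027, SD, n = 3), Cebpa (6.33 ± 0.11), Cebpd (5.57 ± 0.12), Rxra (4.73 ± 0.12), Pparg (4.73 ± 0.055), Klf4 (4.14 ± 0.14), Ebf1 (4.02 ± 0.088), Ebf2 (2.29 ± 0.029), Klf15 (1.51 ± 0.17) and Zfp423 (0.68 ± 0.074). The early factor Cebpb was thus above the terminal factors Cebpa and Pparg in these controls. Every library was taken after isoproterenol, so the order in unstimulated cells was not tested. Neighbours whose control values overlapped were Rxra with Pparg and Klf4 with Ebf1, and the other neighbours did not overlap. With the length of 1 transcript in place of all annotated exons Ebf1 stood at 5.53, beside Cebpd (5.57) and Pparg (5.47). Ebf1 has 9756 bases of annotated exon and a chosen transcript of 3422 bases. For Pparg these lengths are 2953 and 1767 bases, and it then lay above Rxra (4.89) without overlap. In DICER_KO replicates 1 and 2, Zfp423 (2.10 and 1.93) stood above Klf15 (1.85 and 1.90), while in replicate 3 it stood below it (0.32 against 1.30).

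**Figure D1:**
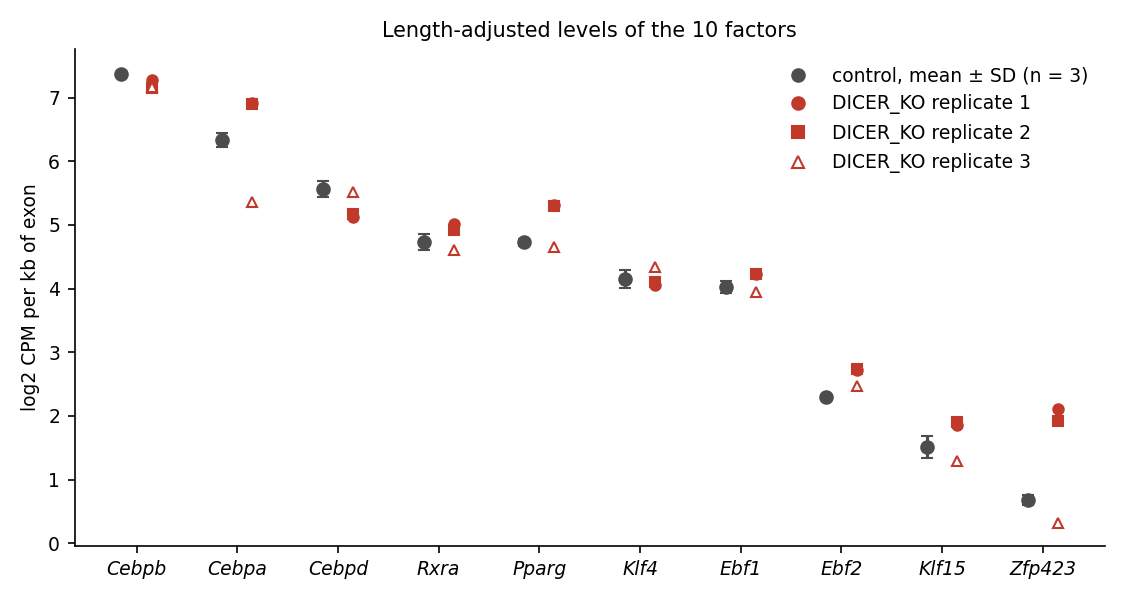
Level of each factor on the scale of log2 CPM per kb of annotated exon, ordered by the control mean. Grey points with bars are control means ± SD (n = 3) and red symbols are the 3 DICER_KO libraries; Cebpb is highest (7.38 in controls) and Zfp423 lowest (0.68), and the open triangle of replicate 3 lies apart from the filled symbols most in Cebpa and Zfp423.

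With all 6 libraries, 0 of the 10 factors passed the threshold in either direction (limma, adjusted p under 0.05 over all genes tested), where 0.438% of all genes did, 0.149% higher and 0.288% lower. At an unadjusted p under 0.05 there were 2, Ebf2 and Cebpd, against 15.8% of all genes, and limma-voom on the reads also gave 2 at that level and 0 after adjustment. The median difference of the 10 was 0.11 on the log2 scale, beside 0.018 over all genes tested. Groups did not overlap for 2 of the 10, Ebf2 and Cebpb, where 20.2% of all genes did not overlap, 10.4% with DICER_KO above and 9.81% with it below. Without DICER_KO replicate 3, Pparg, Cebpa, Ebf2 and Zfp423 rose and Cebpd fell, where 19.7% of all genes were called, 12.5% higher and 7.22% lower. The same 2 DICER_KO libraries stand behind each of these 5 calls.

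**Figure D2:**
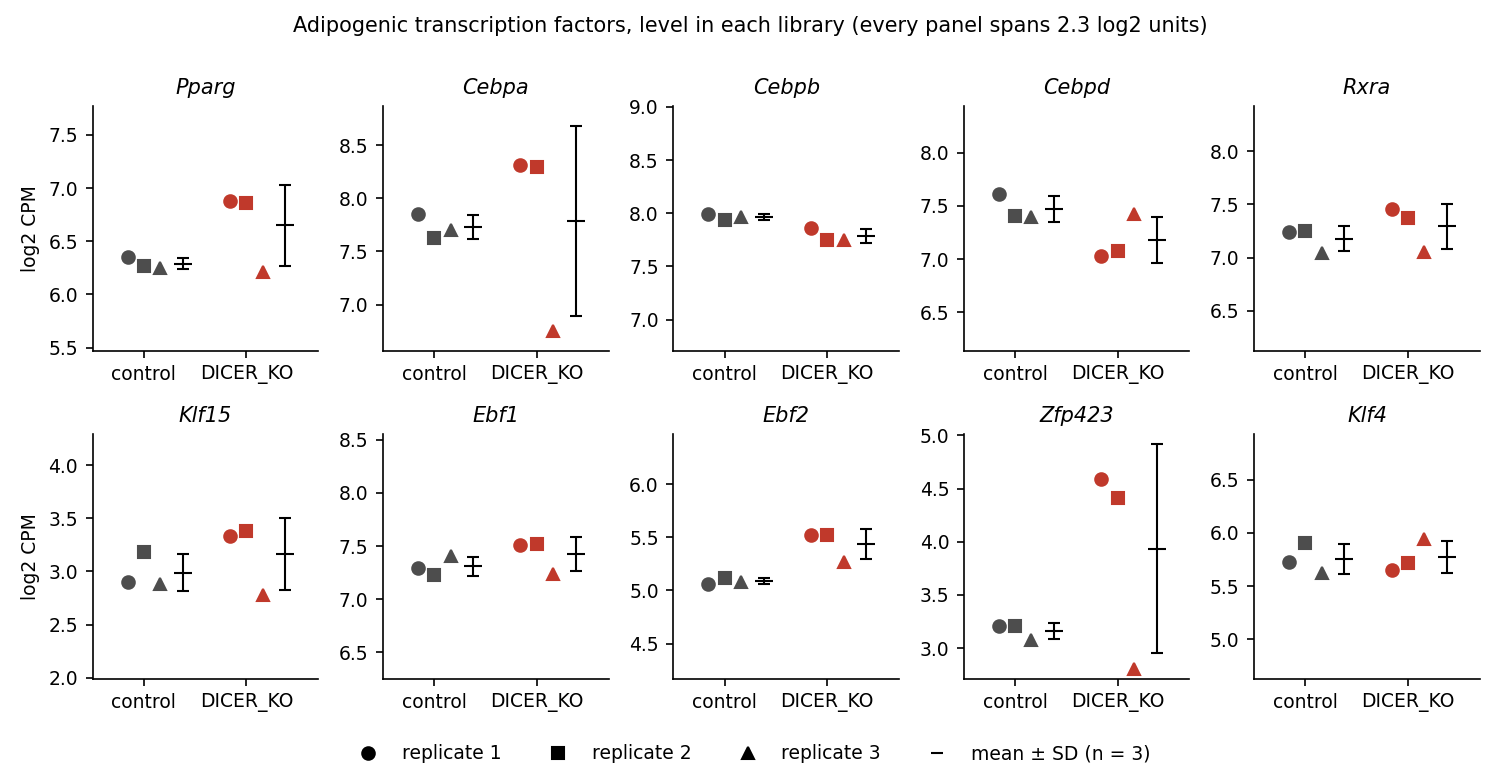
Level of each factor in log2 CPM in each library, with symbols for replicates 1 to 3, controls in grey and DICER_KO in red, and bars for the group mean ± SD (n = 3). Every panel spans the same height. The red triangle of replicate 3 lies below the other DICER_KO symbols in 7 panels, beside 40.6% of all genes tested. It lies below all controls in 5 panels, beside 28.9% of all genes tested.

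Both genes of the core pair of terminal differentiation lay above the controls in DICER_KO replicates 1 and 2 and below them in replicate 3. Pparg (Entrez 19016; GRCm38 chromosome 6, 115360951 to 115490399), the nuclear receptor without which fat cells do not form, measured 6.35, 6.26 and 6.25 log2 CPM across the controls, and 6.88, 6.86 and 6.21 across DICER_KO replicates 1 to 3. Replicates 1 and 2 lay above every control at 1.50 and 1.49 times the control mean, and replicate 3 lay just below the lowest control. The difference with all libraries was 0.36 (SE 0.16, 95% confidence interval -0.0048 to 0.72, limma adjusted p = 0.319). Without replicate 3, Pparg rose by 0.58 (SE 0.096, adjusted p = 0.000629), and in the other 12 alternatives its adjusted p ran from 0.315 to 0.704. Pparg has 3 annotated starts in the promoter table, and a value per gene does not separate its isoforms.

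Cebpa (Entrez 12606; chromosome 7, 35119293 to 35121928), the partner that sustains Pparg and insulin sensitivity, had the second widest spread in DICER_KO. Controls were at 7.85, 7.63 and 7.70 log2 CPM, and DICER_KO libraries at 8.31, 8.29 and 6.75. Replicates 1 and 2 were above all controls, at 1.50 and 1.48 times their mean, and replicate 3 was below all of them, at 0.508 times. The SD was 0.11 in controls and 0.90 in DICER_KO, and the difference was 0.057 (SE 0.33, confidence interval -0.68 to 0.80, adjusted p = 0.939). Without replicate 3, Cebpa rose by 0.57 (SE 0.099, adjusted p = 0.000896). Without replicate 1 or 2 its difference turned to -0.21 and -0.20, and over the 12 other alternatives its adjusted p ran from 0.850 to 0.998.

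Rxra (Entrez 20181), which pairs with PPARγ on DNA, had 7.24, 7.25 and 7.04 log2 CPM in its control libraries and 7.46, 7.37 and 7.05 in those of DICER_KO. Replicates 1 and 2 were above every control and replicate 3 was among them. The difference was 0.12 (confidence interval -0.16 to 0.39, adjusted p = 0.641), and without replicate 3 it was 0.24 (0.021 to 0.45, adjusted p = 0.111).

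In DICER_KO replicates 1 and 2 the early C/EBP factors lay below every control, opposite to Pparg and Cebpa. In replicate 3 Pparg, Cebpa and Cebpb lay below every control and Cebpd among them. Cebpb (Entrez 12608; chromosome 2, 167688915 to 167690418), which cyclic AMP signalling induces at the onset of adipogenesis, measured 7.99, 7.94 and 7.96 log2 CPM across the controls, and 7.86, 7.74 and 7.75 across DICER_KO. Every DICER_KO library, replicate 3 included, lay below every control, at 0.929, 0.858 and 0.863 times the control mean. The size was small, -0.18 (SE 0.096, confidence interval -0.39 to 0.032, adjusted p = 0.372), and it was -0.16 without replicate 3 (adjusted p = 0.223). Cebpb had the smallest spread of the factors, with an SD of 0.027 in controls and 0.065 in DICER_KO.

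Cebpd (Entrez 12609; chromosome 16, 15887286 to 15891031), the second early C/EBP, read 7.62, 7.41 and 7.39 log2 CPM in controls. DICER_KO values were 7.03 and 7.08 in replicates 1 and 2, below every control, and 7.42 in replicate 3, among the controls. The difference was -0.30 (SE 0.13, confidence interval -0.58 to -0.015, adjusted p = 0.298). Without replicate 3, Cebpd fell by 0.42 (SE 0.10, adjusted p = 0.00843), to 0.747 of the control level. Its adjusted p ran from 0.264 to 0.684 in the other 12 alternatives.

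**Figure D3:**
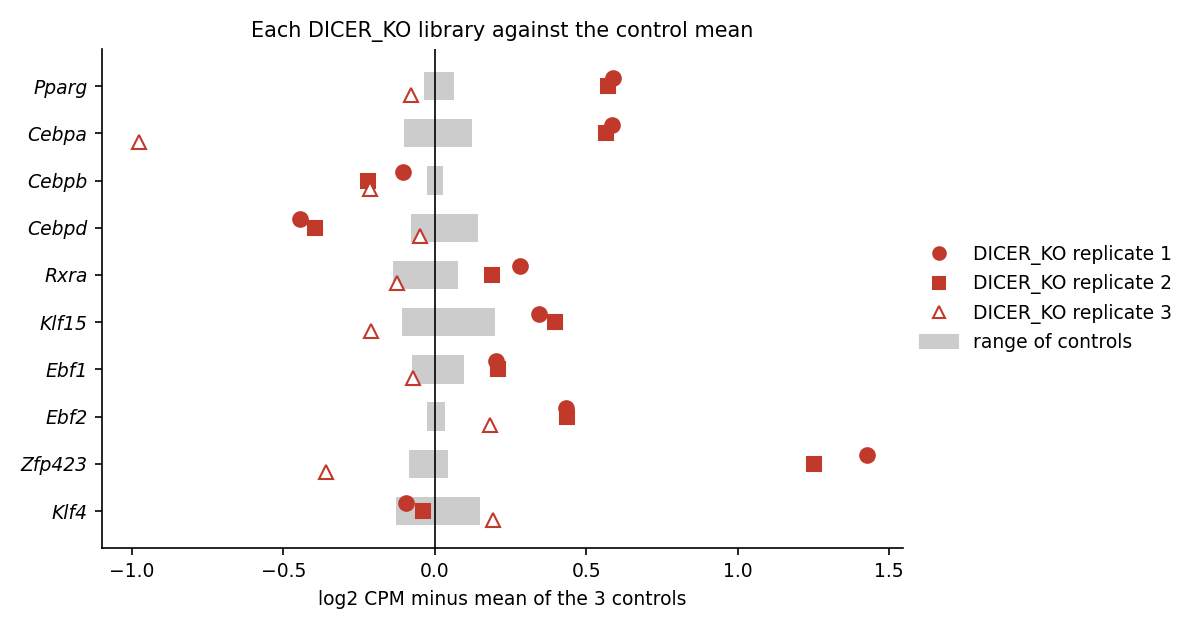
Each DICER_KO library minus the mean of the 3 controls, in log2 CPM, for each factor; red symbols are the libraries and grey bars the range of the controls around their mean. Filled symbols (replicates 1 and 2) lie right of the grey bar in 7 factors and left of it in Cebpb and Cebpd, and the open triangle (replicate 3) lies farthest left for Cebpa (-0.98).

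Of the factors of commitment, Zfp423 and Ebf2 stood out in different ways. Zfp423 (Entrez 94187; chromosome 8, 87661810 to 87959595, minus strand), a zinc finger protein of preadipocyte commitment that holds back the thermogenic programme in white fat, had 3.20, 3.21 and 3.08 log2 CPM in its control libraries and 4.59, 4.41 and 2.80 in those of DICER_KO. Replicates 1 and 2 stood at 2.69 and 2.38 times the control mean and replicate 3 at 0.779 times, below every control. These values rest on 194 to 216 reads in controls and on 423, 517 and 295 reads in DICER_KO. The difference was 0.77 (SE 0.37, confidence interval -0.049 to 1.59, adjusted p = 0.338). Without replicate 3, Zfp423 rose by 1.34 (SE 0.13, adjusted p = 6.29e-06), 2.53 times the control level, and its adjusted p was 0.326 to 0.716 in the other 12 alternatives.

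Ebf2 (Entrez 13592; chromosome 14, 67233292 to 67430918), a factor of committed and of brown or beige preadipocytes, was above every control in every DICER_KO library. It measured 5.06, 5.12 and 5.08 log2 CPM across the controls, and 5.52, 5.52 and 5.27 across DICER_KO. Replicate 3 was the lowest of the DICER_KO libraries and still 1.14 times the control mean, beside 1.35 times in replicates 1 and 2. The difference was 0.35 (SE 0.11, confidence interval 0.10 to 0.60, unadjusted p = 0.00967, limma adjusted p = 0.202). Without replicate 3, Ebf2 rose by 0.43 (SE 0.10, adjusted p = 0.00798), and in the other 12 alternatives its adjusted p ran from 0.178 to 0.561.

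Ebf1 (Entrez 13591), the related early B cell factor that can drive Pparg and Cebpa, had 7.29, 7.23 and 7.41 log2 CPM in its control libraries and 7.51, 7.52 and 7.24 in those of DICER_KO. The 2 higher values were above all controls and replicate 3 was among them. The difference was 0.11 (confidence interval -0.14 to 0.36, adjusted p = 0.606), and 0.21 without replicate 3 (0.0015 to 0.41, adjusted p = 0.140).

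Neither of the Krüppel-like factors passed in either fit. Klf15 (Entrez 66277), a glucocorticoid-induced factor that promotes Pparg and the glucose transporter of fat cells, measured 2.90, 3.19 and 2.88 log2 CPM across the controls, and 3.33, 3.38 and 2.78 across DICER_KO. Replicates 1 and 2 lay above every control and replicate 3 below. The difference was 0.18 (confidence interval -0.24 to 0.59, adjusted p = 0.630), and 0.37 without replicate 3 (0.045 to 0.70, adjusted p = 0.0993). Klf4 (Entrez 16600), which activates Cebpb at the onset of differentiation, had 5.73, 5.90 and 5.63 log2 CPM in its control libraries and 5.66, 5.71 and 5.94 in those of DICER_KO. Only replicate 3 lay outside the controls, just above them. The difference was 0.018 (confidence interval -0.25 to 0.28, adjusted p = 0.946), and its sign turned without replicate 3 (-0.068) and with libraries centred on their medians (-0.015).

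**Figure D4:**
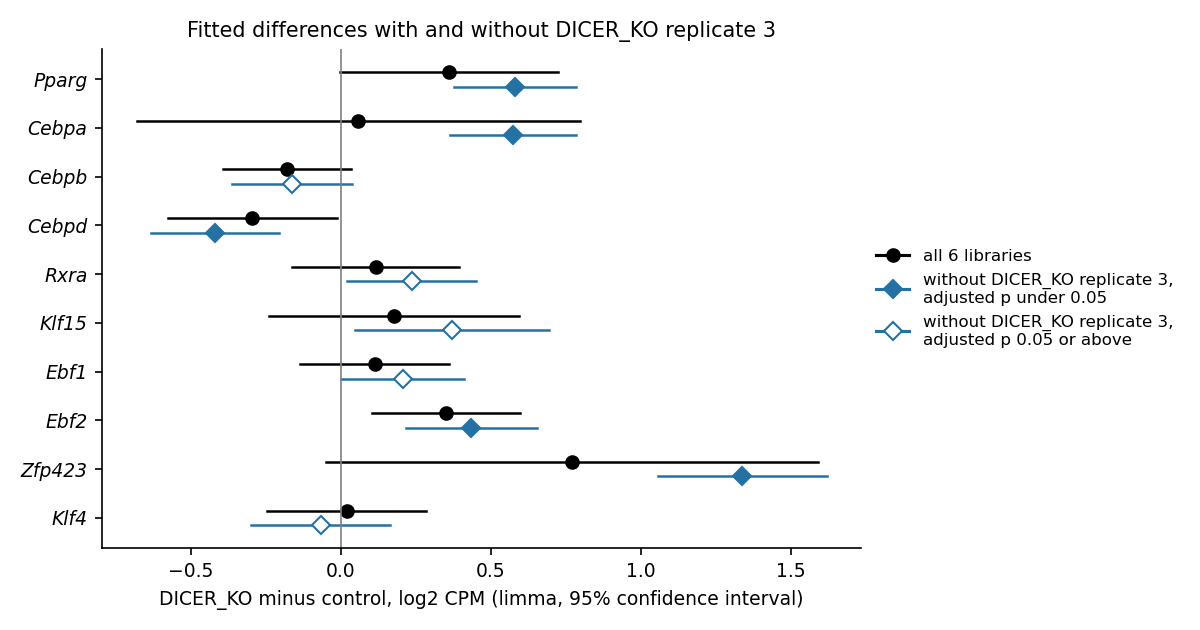
Difference DICER_KO minus control in log2 CPM from limma, with its 95% confidence interval, with all 6 libraries (black circles) and without DICER_KO replicate 3 (blue diamonds, filled where the adjusted p is under 0.05). No black circle passed the threshold; Pparg, Cebpa, Cebpd, Ebf2 and Zfp423 are filled, and the interval of Cebpa narrows from -0.68 to 0.80 down to 0.36 to 0.78.

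Seen library by library, DICER_KO replicates 1 and 2 lay close together and replicate 3 apart, except for Cebpb. For Cebpb, replicates 2 and 3 were together (7.74 and 7.75 log2 CPM) and replicate 1 was apart (7.86). Replicate 1 lay above every control for 7 of the 10 factors and below for 2, where 36.8% and 33.5% of all genes did. Replicate 2 gave the same 7 and 2, where 36.2% and 30.9% of all genes did. Both together lay above every control for 7 of the 10 factors and below every control for 2, beside 28.2% and 23.5% of all genes. Replicate 3 lay below every control for Pparg, Cebpa, Cebpb, Klf15 and Zfp423, where 28.9% of all genes did, and above for Ebf2 and Klf4, where 28.8% did. The full switch, above the controls in replicates 1 and 2 and below them in replicate 3, was found in Pparg, Cebpa, Klf15 and Zfp423, 4 of the 10, and in 8.48% of all genes. Against the mean of replicates 1 and 2, replicate 3 differed by -1.70 for Zfp423, -1.55 for Cebpa, -0.66 for Pparg and -0.58 for Klf15, and by 0.37 for Cebpd and 0.26 for Klf4. The median over the 10 of this difference was -0.32, and over all genes tested it was 0.0096. The markers of the mature adipocyte given above move the same way with these libraries, and their part was not tested.

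The likeness of 2 profiles was measured as the root mean square difference of their 6 library values, each taken against the control mean of its gene. Among the factors the smallest differences were those of Rxra with Klf15 (0.12 log2 units) and with Ebf1 (0.13) and of Pparg with Ebf2 (0.14), and the largest was that of Cebpd with Zfp423 (1.03). The measure is not scaled to the size of the changes, so factors that change little lie near each other. In DICER_KO replicate 3 Pparg was below every control and Ebf2 above every control. Over 8251 genes with a mean of at least 5 CPM, the 5 nearest to Pparg were Tbc1d20, Mpdu1, Psmb8, Ndufb4 and Nacc2, at 0.026 to 0.040. The 5 nearest to Cebpa were Mcam, Pamr1, Mlxipl, Ltc4s and Cd1d1, at 0.047 to 0.082. All share the same 6 libraries, so these are descriptions.

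Other regulators of adipogenesis were mixed. Of 41 listed, 35 were tested and 0 passed with all libraries, where 0.438% of all genes did. At an unadjusted p under 0.05 (limma) there were 7, beside 15.8% of all genes, and the median difference was 0.00080, beside 0.018 over all genes. The smallest p-values were those of Irf4, a repressor of fat cell formation and driver of lipolysis genes, at -1.39 (SE 0.37, adjusted p = 0.125), and of Zfp521, a zinc finger partner of EBF proteins, at 0.47 (SE 0.13, adjusted p = 0.138). Irf4 measured 1.98, 2.13 and 1.69 log2 CPM across the controls, and 1.05, 1.00 and -0.43 across DICER_KO, below the controls in every DICER_KO library. Zfp521 had 3.91, 3.87 and 3.82 log2 CPM in its control libraries and 4.43, 4.45 and 4.14 in those of DICER_KO, above the controls in every DICER_KO library.

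Without replicate 3, 5 of these 35 regulators rose and 4 fell, beside 12.5% and 7.22% of all genes, and they are named here after their values were seen. Ppara, the PPAR of fatty acid oxidation, rose by 1.65 (adjusted p = 2.09e-07), Nr1h3, which encodes LXRα, by 0.95 (1.89e-05), Zfp521 by 0.57 (0.00367), Srebf1, a regulator of lipid synthesis, by 0.51 (0.00296) and Foxo1 by 0.49 (0.00275). Ppara, at 3.92, 4.04 and 3.82 log2 CPM in controls and 5.61, 5.53 and 3.52 in DICER_KO, also lay above every control in replicates 1 and 2 and below in replicate 3. Irf4 fell by 0.91 (adjusted p = 0.00928), Foxc2 by 0.77 (0.00209), Gata2, which restrains the passage from preadipocyte to adipocyte, by 0.72 (0.00134) and Egr1, an immediate early factor, by 0.51 (0.00181). Gata2 read 3.89, 3.86 and 3.87 log2 CPM in controls, 3.18 and 3.13 in DICER_KO replicates 1 and 2, and 3.80 in replicate 3. With all libraries, these regulators had adjusted p-values from 0.125 (Irf4) to 0.773 (Srebf1).

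Coregulators that work with PPARγ gave 0 calls among 15 tested of 20 listed with all libraries, beside 0.438% of all genes, 2 at an unadjusted p under 0.05 (limma), beside 15.8%, and a median difference of 0.15. The smallest p-values belonged to the corepressor genes Ncor1, at 0.30 (SE 0.12, adjusted p = 0.276), and Tbl1xr1, at 0.30 (SE 0.13, adjusted p = 0.294). Without replicate 3, 6 of the 15 rose and 0 fell, beside 12.5% and 7.22% of all genes. The largest rises were in the coactivator genes Ppargc1a, by 1.26 (adjusted p = 1.7e-05), and Ppargc1b, by 1.12 (5.18e-06), and the other 4 were Nrip1, Tbl1xr1, Ncor1 and Ncoa1, by 0.48, 0.43, 0.42 and 0.39.

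Textbook targets of PPARγ and C/EBPα also gave 0 calls with all libraries, among 21 tested of 23 listed, beside 0.438% of all genes, with 2 at an unadjusted p under 0.05 (limma), beside 15.8%, and a median difference of 0.26. The smallest p-values were those of Dgat2, which makes triglyceride, at 0.70 (SE 0.23, adjusted p = 0.226), and of Lpl, which frees fatty acids from lipoproteins, at -0.68 (SE 0.27, adjusted p = 0.280). Dgat2 measured 5.97, 6.25 and 5.97 log2 CPM across the controls, and 6.98, 7.21 and 6.10 across DICER_KO. Lpl had 11.37, 11.12 and 11.50 log2 CPM in its control libraries and 11.11, 10.94 and 9.88 in those of DICER_KO. Without replicate 3, 16 of the 21 targets rose and 0 fell, beside 12.5% and 7.22% of all genes. All 7 mature adipocyte markers above are among these targets. In replicate 3, 20 of the 21 lay below every control, beside 28.9% of all genes, and 16 of the 21 showed the full switch described for Pparg and Cebpa, beside 8.48%. Their median in DICER_KO replicates 1, 2 and 3 against the control mean was 0.74, 0.83 and -0.98, beside 0.31, 0.30 and -0.10 for the 10 factors and 0.028, 0.035 and 0.014 over all genes tested.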

How the data were processed

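Poly(A) RNA of 6 cultures (3 control, 3 DICER_KO) was sequenced. The authors deposited log2 CPM in 1 column a library, and 0 columns belong to other samples. HISAT2, featureCounts, edgeR, Trimmomatic and FastQC, with mm10 and GRCm38, are listed per the submitters' processing notes, without versions or roles. Counting is not stated to use strand. Each value equals the log2 of (reads + 0.5) relative to a library size, in CPM, with 100% whole reads at a tolerance of 0.01. The design text names TMM scaling, so that size may be scaled.

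A limma fit with an intensity trend (limma 3.58.1, R 4.3.3) was run on the deposited log2 values, with group as the only term, for the 10054 genes that reached 1 CPM in 3 or more libraries. P-values are two-sided, Benjamini-Hochberg adjusted across those genes, and called under 0.05. The test was checked on simulated data with the same spread setting for all genes and no deviating library. That check does not cover data with a library like DICER_KO replicate 3. Members and lists were chosen with earlier results of these data known. All 10 members are named, with the 2 smallest p-values of each list where none is called. Entrez IDs were matched to symbols through RefSeq (13682 matched, 52 not). List genes with no value are not analysed here. Among regulators, coregulators and targets these were Klf7, Klf13, Stat5a, Stat5b, Ncoa2, Ncoa3, Ncoa6, Med1 and Ep300. Klf5, Prdm16, Pck1 and Cidea had values but fell below the filter and were not tested. Python 3.11.15 and matplotlib 3.10.9 were used for other steps. Alternatives changed the filter, pseudocount, scaling, test, replicate term and libraries.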

Additional observations from a re-analysis of the deposited data

How the results depend on the processing

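Of 70 values of the 10 factors under 7 alternatives that keep all libraries, 69 kept their direction and stayed short of the threshold. The exception is Klf4, at -0.015 with libraries centred on their medians. Leaving out 1 library at a time gave log2 differences of 0.25 to 0.58 for Pparg, -0.21 to 0.57 for Cebpa, -0.22 to -0.16 for Cebpb, -0.42 to -0.22 for Cebpd, 0.032 to 0.24 for Rxra, 0.067 to 0.37 for Klf15, 0.065 to 0.21 for Ebf1, 0.31 to 0.43 for Ebf2, 0.45 to 1.34 for Zfp423 and -0.068 to 0.093 for Klf4. Cebpa turned to -0.21 and -0.20 without DICER_KO replicate 1 or 2, and Klf4 to -0.046 without control replicate 3 and -0.068 without DICER_KO replicate 3. All calls among the factors came without DICER_KO replicate 3, and the cause was not tested. Over all genes, 15 were higher and 29 lower with all libraries. Robust variance shrinkage gave 23 and 47, and leaving out 1 library gave 0 to 1257 higher and 1 to 726 lower, with the high ends without DICER_KO replicate 3 and the low ends without control replicate 3 (1911 genes at an unadjusted limma p under 0.05). Replicate numbers are shared by the groups, but deviations of same-numbered libraries correlated at 0.196, -0.014 and -0.079, so the numbers were not taken to pair them. With a replicate block limma called 0 genes higher and 2 lower (1434 at an unadjusted p under 0.05), and 0 of the 10 factors. Klf15 and Zfp423 had the fewest reads, 169 to 517 per library.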
